A study of Mus musculus with 37 samples.

Results

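Wfs1 and Cisd2, the mouse genes whose human counterparts cause Wolfram syndrome when mutated, were followed through 37 temporal lobe arrays. The members were every probe set that the array annotation gives to the single symbol Wfs1 or Cisd2, which came to 4 of the 34945 probe sets with 1 symbol and 2 of the 18193 genes. Wfs1 had 1 probe set and Cisd2 had 3. The arrays were Affymetrix mouse expression arrays of dissected, frozen temporal lobe. They fell into 4 groups: 10 arrays of Wfs1 knockout (KO) mice and 9 of wild-type (WT) mice of a strain labelled 129SV, called 129 here, and 9 KO and 9 WT arrays of C57 mice. The design text names the backgrounds C57B6 and 129S6. The KO is labelled WFS1 KO in both strains, and the labels used here do not describe the allele, the age or sex of the animals, or whether 1 animal gave 1 array. The p-values therefore cover variation among arrays, part of which may be technical.

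Wfs1 encodes wolframin, a glycoprotein of the endoplasmic reticulum (ER) membrane that takes part in calcium handling and in the response to unfolded proteins. Loss of wolframin in people gives diabetes mellitus, diabetes insipidus, optic atrophy and deafness, and in rodent brain the gene is strongly expressed in the hippocampal CA1 field, amygdala, striatum and upper cortical layers. Cisd2 encodes an iron-sulfur protein of the CDGSH family at the ER and the mitochondrial outer membrane, known for calcium exchange between these organelles and for autophagy, and its loss causes the second form of the syndrome.

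The promoters of both genes are shown to set the regulatory sequences of the members side by side, and promoter activity was not measured. They come from RefSeq on the build GRCm38.p6, where both members were matched, and run 5′ to 3′ on the gene's own strand, which is the minus strand for both, with 250 bases before the annotated start and 50 bases after it. Capitals mark the CCAAT box (reverse complement ATTGG), the GC box with the letters GGGCGG (reverse complement CCGCCC) and the core of the cyclic AMP response element with the letters TGACGT (reverse complement ACGTCA). The Wfs1 promoter lies at chr5:36988933-36989232 and the Cisd2 promoter at chr3:135423384-135423683.

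Wfs1: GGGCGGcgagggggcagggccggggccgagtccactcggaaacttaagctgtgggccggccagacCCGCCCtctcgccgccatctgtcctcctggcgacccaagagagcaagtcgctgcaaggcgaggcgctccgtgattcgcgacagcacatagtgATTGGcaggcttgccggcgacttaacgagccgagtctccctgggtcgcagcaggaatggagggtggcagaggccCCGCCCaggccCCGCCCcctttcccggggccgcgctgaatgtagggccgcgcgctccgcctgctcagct

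Cisd2: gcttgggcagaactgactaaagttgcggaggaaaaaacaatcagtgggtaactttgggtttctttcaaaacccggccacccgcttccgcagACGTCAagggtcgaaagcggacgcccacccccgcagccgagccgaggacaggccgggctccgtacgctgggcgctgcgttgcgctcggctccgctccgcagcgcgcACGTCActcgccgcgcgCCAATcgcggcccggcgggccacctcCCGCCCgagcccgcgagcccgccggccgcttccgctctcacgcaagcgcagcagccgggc

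Both promoters were rich in G and C, at 70.0% for Wfs1 and 69.7% for Cisd2. Each held 1 CCAAT box, a sequence found in 37.9% of 27025 promoters of the same length. GC boxes numbered 4 in the Wfs1 promoter and 1 in that of Cisd2, and 35.9% of all promoters held at least 1. The core of the cyclic AMP response element stood at 2 places in the Cisd2 promoter and at none in that of Wfs1, against 7.64% of all promoters with a match. These motifs do not overlap each other in either window. Both strands were searched, and a match is a run of letters, not a measured binding site.

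The deposited values were log2 signals, with array medians of 4.30 to 4.36. The log2 difference between the 3′ and 5′ actin control probe sets ranged from 0.91 to 2.76, with the highest in 129 WT array 73. Of 13078 genes tested, 14 passed an adjusted p of 0.05 for KO minus WT in C57, 1 in 129 and 3, or 0.0229%, over both strains. Every marker of CA1, striatum, central amygdala and cortical layers with a probe set passed the filter on dim genes, while 5 of the 10 markers of CA3 and dentate gyrus (Prox1, Dsp, Tdo2, Lct and Iyd) did not. The arrays split into sets of 19 and 18, with set 1 at the lower and set 2 at the higher sample numbers of each group, by the direction in which Gprin3 deviated from its group mean. Arrays 59 and 53 of 129 KO and array 73 of 129 WT were the least like their own groups, with median correlations to the group's other arrays of 0.980, 0.986 and 0.985.

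The Wfs1 signal lay near the dim end of the scale in KO temporal lobe and was similarly high in WT lobes of both strains. Its probe set, 1448411_at, had a lowest, median and highest log2 signal of 2.64, 3.19 and 3.59 in 129 KO arrays, and of 9.11, 9.36 and 9.52 in 129 WT arrays. The values in C57 KO arrays were 2.75, 2.93 and 3.60, and those in C57 WT arrays were 9.16, 9.27 and 9.73. Every KO array lay below every WT array, with a gap of 5.50 log2 units between them, and 18 of 19 KO arrays lay below the filter on dim genes, a log2 signal of 3.60. The genotype labels thus hold on every array, although the labels do not give the part of the gene that the allele lacks.

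The mean log2 signal of Wfs1 was 3.03 ± 0.26 in C57 KO and 9.32 ± 0.17 in C57 WT (SD, n = 9 each), a fall of 78.0-fold (log2 difference −6.29, SE 0.10; limma adjusted p = 2.04e-36). In 129 it was 3.11 ± 0.28 in KO (SD, n = 10) and 9.33 ± 0.12 in WT (SD, n = 9), a fall of 74.8-fold (log2 difference −6.22, SE 0.10; limma adjusted p = 1.11e-36). Because the KO signal lies at the dim end of the scale, these folds describe array signal and not a ratio of transcripts. Wfs1 was 1 of the genes called in each of these comparisons, of which 0.107% and 0.00765% of all genes tested passed in C57 and in 129. The change in C57 minus that in 129 was −0.06 (SE 0.14; limma adjusted p = 0.999), and 0.0153% of genes passed that test. It rests on mean KO signals below the filter in both strains, so no reading of transcript levels is drawn from it.

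**Figure D1:**
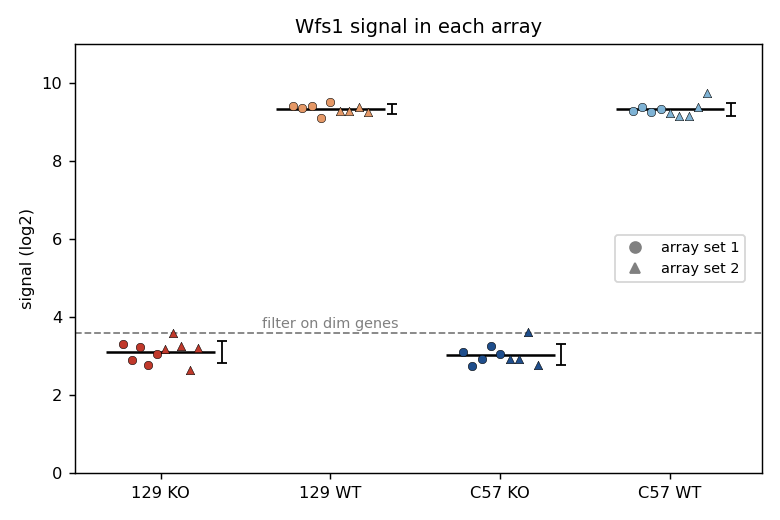
Wfs1 log2 signal in each array, with groups on the horizontal axis and the filter on dim genes as a dashed line. Points are arrays, circles and triangles are array sets 1 and 2, the black line is the group mean and the bracket is the SD. The KO arrays lie at 3.60 or lower and the WT arrays at 9.11 or higher.

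Between strains, Wfs1 did not pass the test in WT lobes. The log2 difference 129 WT minus C57 WT was 0.01 (SE 0.10, 95% interval −0.19 to 0.22; limma adjusted p = 0.990), and 2.06% of genes passed in this test. The log2 difference 129 KO minus C57 KO was 0.08 (SE 0.10; limma adjusted p = 0.866), where 3.06% of genes passed. Both KO means lie below the filter, so this difference is not read further. The comparisons within strains and between strains share arrays. With all 18 WT arrays included, Wfs1 varied more from array to array than most genes of like signal. Its SD after group means were removed was 0.149 over 18 arrays, and 407 of the 500 genes closest in signal, or 81.4%, had a smaller one, with a median of 0.0966. C57 WT array 42 lay farthest from its group mean, at 0.41. The SD was 0.17 in C57 WT, which holds that array, and 0.12 in 129 WT. The ranking is not given without array 42, and how far it rests on that array was not tested.

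Cisd2 did not pass the test for KO minus WT in either strain, and its 3 probe sets were measured at different signals. The brightest, 1428441_at, had a lowest, median and highest log2 signal of 5.39, 6.07 and 6.14 in 129 KO arrays and of 5.84, 6.01 and 6.34 in 129 WT arrays. In C57 KO arrays the values were 5.94, 6.18 and 6.79, and in C57 WT arrays 6.02, 6.35 and 6.55. KO and WT overlapped in both strains. The order of the group means was C57 KO (6.30), C57 WT (6.29), 129 WT (6.01) and 129 KO (5.98), and no neighbouring pair in this order passed the test (limma adjusted p = 0.168 for 129 WT minus C57 WT).

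The KO minus WT difference of Cisd2 was 0.0053 in C57 (SE 0.10, 95% interval −0.20 to 0.21; limma adjusted p = 0.997) and −0.03 in 129 (SE 0.10, 95% interval −0.23 to 0.17; limma adjusted p = 1.00). The change in C57 minus that in 129 was 0.04 (SE 0.14; limma adjusted p = 0.999), and 0.0153% of genes passed that test. The interval leaves room for a change of the size of these bounds. The sign of these near-zero differences changed with the setting and with single arrays, without any passing the test.

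The 2 dimmer Cisd2 probe sets did not pass for KO minus WT either. Probe set 1430992_s_at had 4.10, 4.99 and 5.36 as lowest, median and highest log2 signal in 129 KO and 4.59, 5.00 and 5.23 in 129 WT. In C57 KO it had 4.65, 5.00 and 5.68, and in C57 WT 4.82, 5.03 and 5.64. Probe set 1429283_at was the dimmest, at 4.01, 4.12 and 4.28 in 129 KO and 3.96, 4.24 and 4.38 in 129 WT. It had 3.9996, 4.27 and 4.77 in C57 KO and 3.95, 4.24 and 4.70 in C57 WT. The groups overlapped in each of these. The log2 difference KO minus WT of 1430992_s_at was −0.030 in C57 and −0.11 in 129 (limma adjusted p = 0.999 and 1.00). That of 1429283_at was 0.024 in C57 and −0.087 in 129 (limma adjusted p = 0.999 and 1.00).

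**Figure D2:**
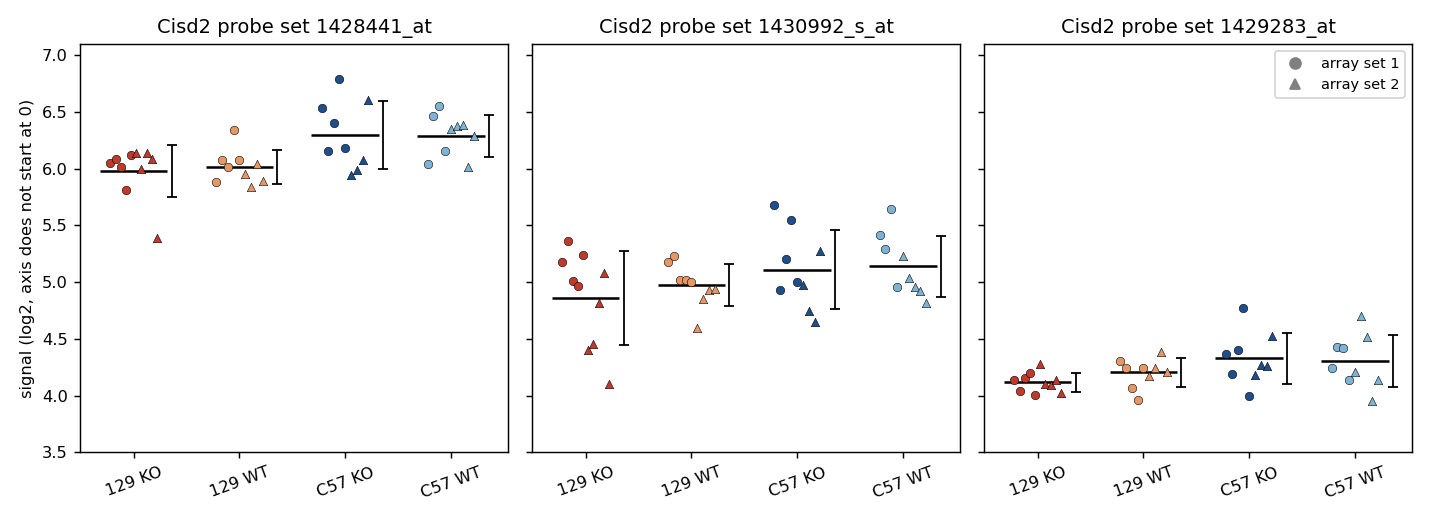
Cisd2 log2 signal in each array for its 3 probe sets, on an axis that does not start at 0. Points are arrays, circles and triangles are array sets 1 and 2, the black line is the group mean and the bracket is the SD. KO and WT arrays overlap in both strains, and the 129 means lie below the C57 means on each probe set.

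Cisd2 was lower in 129 than in C57 temporal lobe over both genotypes, in a comparison that was chosen with the values known. The mean of the group means of 1428441_at was 5.998 in 129 and 6.29 in C57, a log2 difference of −0.30 (SE 0.07, 95% interval −0.44 to −0.16; limma adjusted p = 0.00425), or 1.23-fold lower, and 7.3% of all genes tested passed in this comparison, with 4.16% of all genes tested called lower. The difference was −0.28 between WT groups (SE 0.10; limma adjusted p = 0.168) and −0.32 between KO groups (SE 0.10; limma adjusted p = 0.0704), so neither passed on its own in this fit, where 2.06% and 3.06% of genes passed. The WT difference passed when only those groups were fitted (limma adjusted p = 0.0479) and without the 3 arrays least like their groups (limma adjusted p = 0.0418). The KO difference passed without C57 KO array 8, at −0.36 (limma adjusted p = 0.0330), and without C57 KO array 9, at −0.35 (limma adjusted p = 0.0396). The other probe sets pointed the same way without passing, at −0.21 for 1430992_s_at (limma adjusted p = 0.272) and −0.16 for 1429283_at (limma adjusted p = 0.100). The call was lost in array set 2 alone, at −0.28 (limma adjusted p = 0.168). Markers of other cells also differed between strains over both genotypes: 3 of 9 oligodendrocyte markers were lower in 129 (median −0.16), as were 3 of 8 microglia markers (median −0.05), 2 of 8 astrocyte markers (median −0.09) and 1 of 10 neuron markers (median −0.02). In this bulk tissue, fewer cells of a type and less RNA per cell cannot be told apart, and the part of these markers in the Cisd2 difference was not tested.

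Cisd1, which encodes mitoNEET, the mitochondrial relative of Cisd2, was called in no comparison. Its brightest probe set, 1416850_s_at, averaged 10.1 ± 0.17 in 129 KO (SD, n = 10), 10.1 ± 0.06 in 129 WT, 10.1 ± 0.08 in C57 KO and 10.1 ± 0.05 in C57 WT (SD, n = 9 each). Its strain difference over both genotypes was 0.01 (SE 0.04; limma adjusted p = 0.918). The third member of the family, Cisd3, was not analysed here. In the list of CDGSH and iron-sulfur cluster assembly genes, Cisd2 was the 1 of 12 tested genes that was called between strains over both genotypes, and 0 of 12 were called for KO minus WT in either strain by limma. Over all genes tested, 7.3% were called between strains, and 0.107% and 0.00765% for KO minus WT in C57 and 129. These counts therefore say nothing particular to the list. The median KO minus WT difference of this list was 0.0037 in C57 and 0.03 in 129, beside medians over all genes tested of 0.02 and −0.0037. At an unadjusted p under 0.05, 833 and 279 of all genes passed in C57 and in 129.

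Of 24 genes of ER stress and the unfolded protein response, 8 partners and turnover factors of wolframin, 19 genes of ER calcium and ER-mitochondria contacts, 11 genes of autophagy and the BCL2 family, and 9 genes of secretory granules, 0 were called by limma for KO minus WT in C57 or in 129. With 0.107% and 0.00765% of all genes called in these comparisons, lists of this size would hold about none, so the count says nothing particular to them. Hspa5, the main ER chaperone, differed by 0.06 in C57 and −0.08 in 129 (limma adjusted p = 0.975 and 1.00). Xbp1, a transcription factor of the unfolded protein response, differed by −0.12 and −0.06, and Atf6, whose product wolframin is known to restrain, by 0.06 and 0.0032. Ddit3, the stress-induced factor CHOP, differed by −0.04 and −0.03. The striatum markers stood lowest of the lists in C57, with 0 of 12 called, a median of −0.40 in C57 and of −0.14 in 129, and every member below 0 in both strains. Beside them, oligodendrocyte markers had a median of −0.19 in C57 and −0.05 in 129, with 0 of 9 called, and choroid plexus markers had −0.12 and −0.02, with 0 of 5 called. The medians over all genes were 0.02 and −0.0037, and the part of these cell types in the striatum values was not tested.

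The WT arrays were then used to ask which genes vary with Wfs1 from array to array once group means are removed. None of 13077 other genes passed the test in 18 WT arrays (limma, lowest adjusted p = 0.537, 0% called), while 957 genes, or 7.32%, passed at an unadjusted p under 0.05, of which 424 had a positive and 533 a negative slope. The genes below are those with the highest and lowest moderated t of the slope, not those with the steepest slopes, and since they were chosen by these values their correlations are a description with no test. In an alternative without 129 WT array 73, 1 gene passed (1500004A13Rik, limma adjusted p = 0.00471), which is named here after its value was seen. The largest negative correlation was that of Rims3, which encodes a scaffold protein of the presynaptic active zone, and the largest positive one that of Osgepl1, which encodes a mitochondrial enzyme of transfer RNA modification.

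Rims3 had a slope of −0.71 (SE 0.14) on Wfs1, with r = −0.86 and rho = −0.83 (limma adjusted p = 0.537). It had r = −0.79 without the 2 arrays farthest from the median Wfs1 deviation, which were C57 WT array 42 and 129 WT array 74. Both lay above their group means in Wfs1, at 0.41 and 0.19. Array 73 of 129 WT, which deviated by −0.23 in Wfs1 and 0.26 in Rims3, stayed in. Leaving out each WT array in turn gave Rims3 slopes of −0.81 to −0.63. Within strains r was −0.84 in 129 WT and −0.98 in C57 WT, and within array sets it was −0.88 and −0.91. Its other probe set was dim, with a mean log2 signal of 2.50, and gave r = −0.57. Rims3 itself did not pass for KO minus WT, at 0.25 in C57 (limma adjusted p = 0.359) and −0.03 in 129 (limma adjusted p = 1.00), although C57 KO arrays spanned 7.51 to 8.05 against 7.15 to 7.50 in C57 WT.

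Osgepl1 had r = 0.81 and rho = 0.73 with Wfs1 (limma adjusted p = 0.537), and r = 0.73 without the 2 farthest arrays. Its slope of 0.73 ran from 0.63 to 0.86 when each WT array was left out in turn. Within strains r was 0.80 in 129 WT and 0.87 in C57 WT. Its other probe sets gave 0.40, 0.45 and −0.12.

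**Figure D3:**
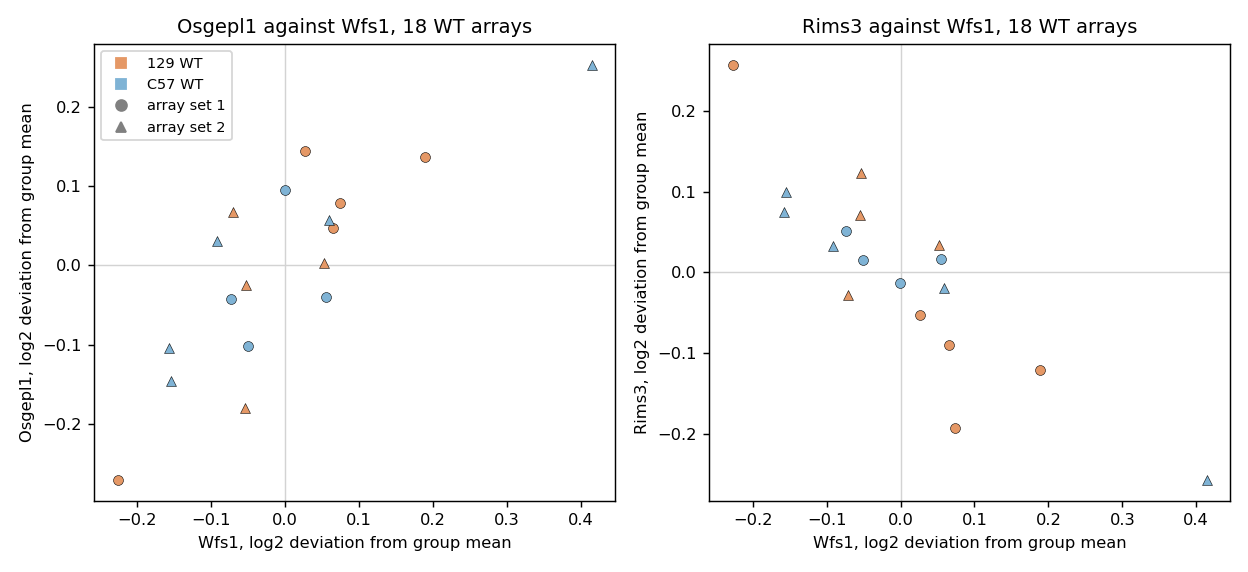
Deviations from the group mean, in log2 units, of Osgepl1 (left) and Rims3 (right) against those of Wfs1 in 18 WT arrays. Colours are the strains and shapes the array sets. Points run upward for Osgepl1 (r = 0.81) and downward for Rims3 (r = −0.86), and the array farthest to the right is C57 WT array 42.

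The other genes with the highest t had correlations of 0.68 to 0.79. Retsat, a retinol saturase, had r = 0.74. Pgm1, phosphoglucomutase, had r = 0.79, which was 0.51 without the 2 farthest arrays. Cox18, which inserts a cytochrome oxidase subunit into the mitochondrial inner membrane, had r = 0.74, and Ptpmt1, a mitochondrial phosphatase of cardiolipin synthesis, had r = 0.77. Cox18 was also among the genes higher in KO of C57, at 0.39 (limma adjusted p = 0.0285), and it did not pass in 129, at 0.08. Cox18 lies on chromosome 5, as Wfs1 and the listed genes Tada2b and Agfg2 do, and the part of this shared chromosome in the change was not tested. The rest were Tada2b, an adaptor of the SAGA chromatin complex (r = 0.76), Acyp1 (r = 0.79), Dnaic1 (r = 0.69), Aste1 (r = 0.68), Adarb2 of the RNA editing family (r = 0.69), the iron regulator Hfe (r = 0.68), Agfg2 (r = 0.74), Churc1 (r = 0.71), Sntg1 (r = 0.69) and the Bardet-Biedl gene Mkks (r = 0.75).

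The other genes with the lowest t had correlations of −0.78 to −0.65. Kcng1, a potassium channel subunit, had r = −0.77, and Kcnt2, a sodium-activated potassium channel, had r = −0.67. Lrfn2, a synaptic adhesion molecule, had r = −0.77, and Rgs5, a regulator of G protein signalling that is abundant in pericytes, had r = −0.75. Ints3, a subunit of the Integrator complex, had r = −0.78, and −0.76 without the 2 farthest arrays. Gosr1, a Golgi SNARE, had r = −0.67, which was −0.0028 without them. The others were Tmem114 (−0.75), Arvcf (−0.74), Stk38 (−0.76), Gfra2 (−0.65), Elmod2 (−0.73), Npas1 (−0.68), Gng4 (−0.68) and Hhex (−0.70). No gene named in these paragraphs other than Cox18 was called for KO minus WT.

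The CDGSH and iron-sulfur cluster list stood highest by its median correlation with Wfs1 over 18 arrays. Its median r was 0.33, beside −0.0066 over all genes, and 11 of 12 members lay above 0, beside 6424 of 13077 of all genes. Without C57 WT array 42 and 129 WT array 74 the median was 0.08. The positive members included Iscu, the scaffold on which clusters are built (r = 0.58), Hscb, its co-chaperone (r = 0.51), Fdx1, a ferredoxin (r = 0.47), and Glrx5, a glutaredoxin (r = 0.46). Without those arrays the same 4 correlations were 0.16, 0.07, 0.17 and −0.10. Cisd2 was the 1 member below 0.

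The ER stress list lay on the negative side, with a median r of −0.20 and 7 of 24 members above 0, and its median was −0.02 without the same arrays. Xbp1 had r = −0.45 (permutation p = 0.0342; limma adjusted p = 0.689) and Atf6 r = −0.40 (permutation p = 0.136). Hspa5 had r = −0.35 (permutation p = 0.143) and Ddit3 r = 0.08 (permutation p = 0.784). Without the same arrays these correlations were −0.32, −0.07, −0.01 and −0.03. In array sets 1 and 2 they were −0.04 and −0.73 for Xbp1, and −0.61 and −0.30 for Atf6. Hspa5 had 0.52 and −0.82, and Ddit3 had −0.25 and 0.65. Herpud1, an ER-associated degradation factor, ran against the list median over 18 arrays, at r = 0.45. The partners and turnover factors of wolframin had a median r of −0.20, and −0.02 without the same arrays. The sodium pump subunit Atp1b1, at r = 0.12, was 1 of 2 of these 8 genes above 0, and Itpr1 was not analysed here.

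Lists of brain regions where Wfs1 is known to be high had medians on both sides of 0. The median r was −0.02 for CA1 with 3 of 7 members above 0, 0.11 for central amygdala with 7 of 9, 0.12 for striatum with 10 of 12 and −0.23 for upper cortical layers with 1 of 9. Without the 2 farthest arrays these medians were 0.25, 0.06, 0.19 and −0.29. The basolateral amygdala list had a median of −0.22 with 2 of 5 above 0, and of 0.09 without those arrays. Striatum markers had a median r of −0.43 in 129 WT and 0.39 in C57 WT, and oligodendrocyte markers had −0.46 and 0.08. The neuron list had a median of 0.19 over 18 arrays, and of 0.45 with 8 of 10 members above 0 without the 2 farthest arrays, where it was the highest of the lists. A test of whether slopes on Wfs1 differ between strains called 0 of 13077 genes by limma (lowest adjusted p = 0.132, 0% called), with 1386 at an unadjusted p under 0.05. Genes passing the adjusted test numbered 96 without 129 WT array 74 and 1 without 129 WT array 70. At an unadjusted p under 0.05 there were 2540 and 1301 in these settings.

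**Figure D4:**
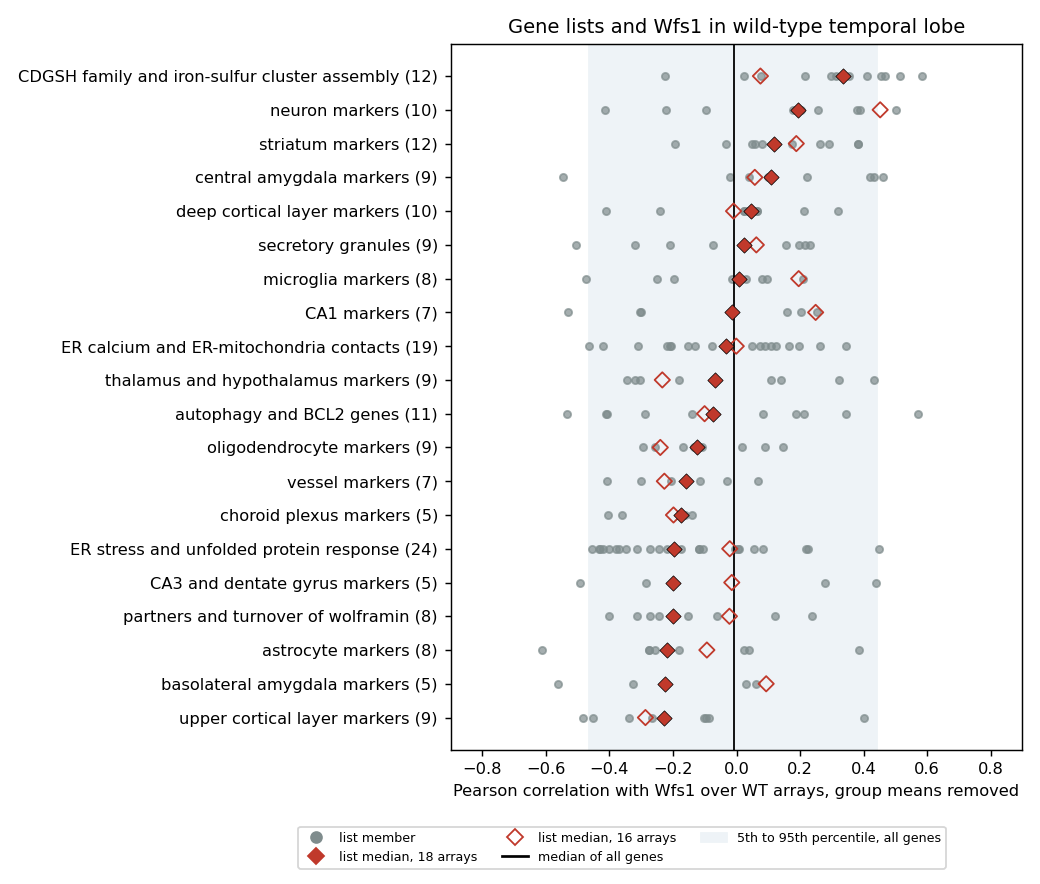
Correlation of list members with Wfs1 over WT arrays after group means were removed, with the number of tested members in brackets. Grey points are genes, filled diamonds are list medians over 18 arrays, open diamonds are medians over the 16 arrays left without the 2 farthest in Wfs1, and the shaded band holds the 5th to 95th percentile of all genes, −0.46 to 0.44. The CDGSH list has the highest filled diamond, 0.33, and its open diamond lies at 0.08. The highest open diamond is that of the neuron list, 0.45.

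The correlation between the 2 members did not pass the permutation test. Over 18 WT arrays Wfs1 and Cisd2 had r = −0.23 (permutation p = 0.419) and rho = −0.38 (permutation p = 0.131), and r = −0.45 without the 2 farthest arrays (permutation p = 0.0906). The other Cisd2 probe sets gave −0.19 (permutation p = 0.502) and −0.25 (permutation p = 0.398). Within strains r was −0.32 in 129 WT (exact permutation p = 0.386) and −0.17 in C57 WT (exact permutation p = 0.684), and within array sets it was −0.41 and −0.21 (exact permutation p = 0.220 and 0.667). Without 129 WT array 73 it was −0.02.

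Cisd2 was also the starting point for all 37 arrays, and 1 of 13077 genes passed. That was Tifa, an adaptor protein of inflammatory signalling through TRAF proteins, with a negative slope of −0.99 (SE 0.14; limma adjusted p = 0.000191), and 0.00765% of genes were called. By an unadjusted p under 0.05, 1448 genes passed. The count of genes called depended on the Cisd2 probe set used as covariate: it was 242 with 1430992_s_at and 0 with 1429283_at. Tifa had lowest, median and highest log2 signals of 4.90, 5.27 and 5.65 in 129 KO arrays and 5.09, 5.32 and 5.68 in 129 WT arrays. In C57 KO arrays they were 4.64, 5.45 and 5.67, and in C57 WT arrays 4.81, 5.16 and 5.66. The groups overlapped, and Tifa did not pass between strains, at 0.13 for 129 WT minus C57 WT and 0.06 for 129 KO minus C57 KO (limma adjusted p = 0.816 and 0.926).

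Over 37 arrays Tifa and Cisd2 had r = −0.78 and rho = −0.76, and r = −0.76 without the farthest arrays, 129 KO array 59 and C57 KO array 5. The direction was negative in every group: r = −0.54 in 129 KO, −0.63 in 129 WT, −0.93 in C57 KO and −0.82 in C57 WT. These values retrace the choice of Tifa and carry no test of their own. It was −0.81 in array set 1 and −0.74 in array set 2. The dimmer Cisd2 probe sets gave −0.45 and −0.60. The call held without each of the 37 arrays in turn, with limma adjusted p of 6.33e-05 to 0.00408. It was lost in either array set alone, in WT or KO arrays alone and with a dimmer Cisd2 probe set as covariate. In WT arrays alone the 1 gene called was another, Gla (limma adjusted p = 0.0195), while Tifa had a limma adjusted p of 0.336. Tifa has 1 probe set, and it lies on chromosome 3, as Cisd2 does, with 104 annotated genes between them.

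**Figure D5:**
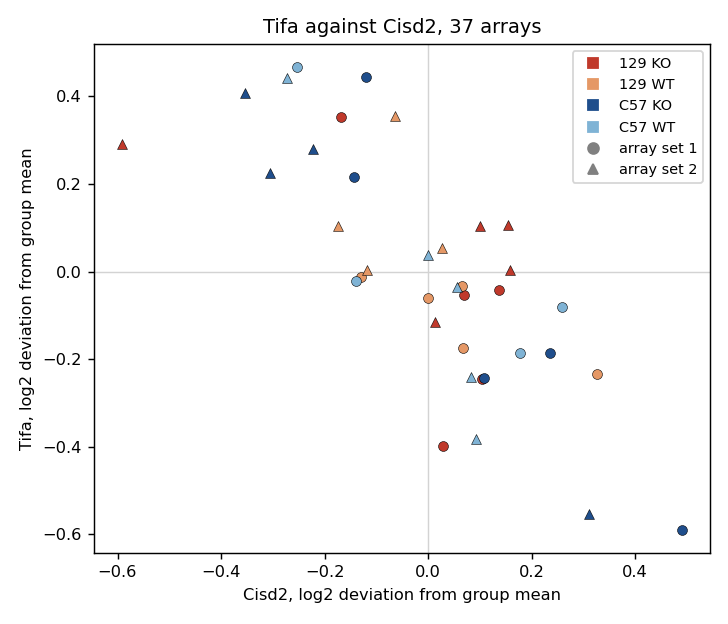
Deviations from the group mean, in log2 units, of Tifa against those of Cisd2 probe set 1428441_at in 37 arrays. Colours are the groups and shapes the array sets. Points run downward (r = −0.78), and the array farthest to the left is 129 KO array 59.

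Among the 16 genes with the highest and lowest t of the slope on Cisd2, the highest t belonged to Mt3, a zinc-binding metallothionein of brain (r = 0.67), which did not pass (limma adjusted p = 0.0660). Mt3 passed under 5 of 16 alternatives, with limma adjusted p of 0.0312 to 0.999 over them, and without 5 of the 37 arrays when each was left out in turn. Its correlation was 0.19 and 0.26 with the other Cisd2 probe sets. The others with positive slopes were Rbak (r = 0.66), the nuclear receptor coactivator Ncoa2 (0.69), the signalling suppressor Socs6 (0.59), the Cdk5 activator Cdk5r2 (0.57), Sowahb (0.59), Mcc (0.59) and Asap2 (0.57). On the negative side were Atpaf2, an assembly factor of the mitochondrial ATP synthase (r = −0.65), Coa3, an assembly factor of cytochrome oxidase (−0.59), Prdx2, a peroxidase (−0.57), Slco1c1, a thyroid hormone carrier (−0.61), Crhbp, which binds corticotropin-releasing hormone (−0.56), Caly (−0.61) and Wwtr1 (−0.56). None of these passed. Mt3 had r = 0.71 without the farthest arrays, 129 KO array 59 and C57 KO array 5. The other genes named here were weaker without them, at 0.36 (Sowahb) to 0.59 (Rbak) and −0.61 (Atpaf2) to −0.29 (Coa3). In C57 WT arrays alone, Socs6 (−0.04), Sowahb (−0.04), Mcc (−0.07) and Caly (0.16) had the opposite sign. The rest kept their sign, among them Coa3 at −0.0068 and Atpaf2 at −0.73.

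Over 37 KO and WT arrays, the iron-sulfur list had a median r of −0.20 with Cisd2, a highest of 0.0076 and a lowest of −0.35. The median over all genes was 0.01, and 0 of 11 were called by limma. The list's median r with Wfs1 was taken over WT arrays alone. It was 0.33, and 0.08 without the arrays farthest in Wfs1, so the 2 medians are not compared further. Array 59 of 129 KO lay lowest of its group in Cisd2 and highest in Cisd1, a relative of Cisd2. The list median with Cisd2 is not given without that array, and how far it rests on array 59 was not tested. The 3 Cisd2 probe sets correlated with each other at 0.60, 0.49 and 0.26 over 37 arrays. In C57 KO these were 0.86, 0.83 and 0.63, and in 129 WT 0.26, −0.58 and 0.07, so the probe sets followed each other in some groups more closely than in others. With all 37 arrays included, Cisd2 also varied more than most genes of like signal. Its SD after group means was 0.222, above that of 429 of 500 genes (85.8%). The largest deviation from a group mean was that of 129 KO array 59, at −0.59. The ranking is not given without that array, and how far it rests on it was not tested.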

How the data were processed

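Per the submitters' processing notes, MAS5 and GCRMA were used, with neither version nor role given. The authors deposited probe set values in log2 units, used here as deposited. Probe sets with several symbols (932) or none (9160) and 64 controls were left out. A gene was represented by its brightest probe set and tested when a group mean reached the 40th percentile, 3.60. limma 3.58.1 in R 4.3.3 fitted 1 mean per group. For genes varying with Wfs1 (18 WT arrays) or Cisd2 (37 arrays), its signal was added as a covariate. Benjamini-Hochberg adjustment ran over all genes tested. Permutations were 2-sided, within groups, 100000 draws, or exact under 10 arrays. The fits were also run on simulated data with noise independent between genes, which leaves out variation that genes share across arrays. Array sets were defined from the data, by Gprin3. The members, gene lists and the rule for naming genes (15 strongest moderated t each way for Wfs1, 8 each way for Cisd2, up to 4 members of each list) were chosen with earlier results of these data known. Alternatives covered the filter, normalization, probe set choice, array sets, covariates and arrays left out. The number of arrays limits the precision.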

Additional observations from a re-analysis of the deposited data

Results flagged for a closer look

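A sample far from the others of its group was found in 3 of 16 groups of member probe sets, where chance flags about 5% of groups. Cisd2 probe set 1428441_at was lowest in 129 KO array 59, at 5.39, and highest in 129 WT array 73, at 6.34. Wfs1 was highest in C57 WT array 42, at 9.73. Arrays 59 and 73 were also the least like their groups over all genes.

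Of 12 groups of Cisd1 probe sets, 6 held such a sample. Cisd1 was highest in 129 KO array 59 on each of its 3 probe sets, at 9.90 for 1416849_at, 10.5 for 1416850_s_at and 9.05 for 1443822_s_at. The lowest values were 8.81 in C57 KO array 10 for 1416849_at, 9.92 in 129 WT array 77 for 1416850_s_at and 8.22 in C57 KO array 17 for 1443822_s_at.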

How the results depend on the processing

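The fall of Wfs1 in KO passed under every alternative run, at −6.29 to −6.27 in C57 and −6.31 to −6.13 in 129. The near-zero Cisd2 difference KO minus WT in C57 changed sign with quantile normalization (−0.0033), probe set 1430992_s_at (−0.030), the mean of probe sets (−0.000190), array set as a block (−0.0081), array set 2 alone (−0.13) and the actin difference as a covariate (−0.0052). That in 129 changed sign in array set 2 (0.018) and without the 3 arrays least like their group (0.11), and over both strains in array set 1 (0.023) and without those 3 arrays (0.055). The difference of Cisd2 changes between strains turned to −0.15 in array set 2, −0.0035 with actin and −0.10 without the 3 arrays. For Wfs1, whose KO signal is below the filter, that difference was 0.020 in array set 1, and 129 WT minus C57 WT was −0.031 in array set 2. None of these passed. Cisd2 in 129 WT minus C57 WT passed with only the groups compared (−0.28) and without the 3 arrays (−0.32). Over both genotypes it no longer passed with 1430992_s_at (−0.21), 1429283_at (−0.16) or array set 2 alone (−0.28).

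Genes following Wfs1 numbered 1 with the mean of probe sets, 3 in C57 WT alone and 1 without the 3 arrays, and the slope difference called 2 in array set 1. Of those 3 arrays only 129 WT array 73 enters the WT fit, so for Wfs1 that setting repeats the fit without array 73. Genes following Cisd2 numbered 2 with the 60th percentile filter, median centring, the mean of probe sets or trend and robust fitting, 3 with array set as a block, 4 with quantile normalization, 0 in array set 1, array set 2 or KO arrays alone, 242 with probe set 1430992_s_at as covariate and 0 with 1429283_at. The cause was not tested.

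Leaving out each array in turn gave Cisd2 KO minus WT of −0.056 to 0.049 in C57, −0.052 to 0.035 in 129 and −0.043 to 0.020 over both strains, and −0.030 to 0.080 for their difference. Cisd2 in 129 KO minus C57 KO was −0.36 to −0.25 and passed without C57 KO arrays 8 or 9. Wfs1 in 129 WT minus C57 WT was −0.0094 to 0.066. Genes following Wfs1 numbered 0 to 1, slope differences 0 to 96, and genes following Cisd2 1 to 3. No paired analysis was possible because the sample numbers are not shared between groups. Signal at the dim end limits what the KO arrays can say of residual Wfs1.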
